A study of Homo sapiens with 18 samples.

Results

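The genes described here are 6 aldehyde dehydrogenase genes, ALDH1A1, ALDH1A3, ALDH3A1, ALDH3A2, ALDH3B1 and ALDH3B2, and 3 genes of surface proteins used to sort breast stem-like cells, CD44, CD24 and PROM1. They were chosen by name, from the ALDH1A and ALDH3 classes and as common surface markers, and all 9 were found among the 35933 genes with values. ALDH1A2 is not among them and is counted with the other aldehyde dehydrogenases. Their levels were followed in 18 RNA sequencing libraries of a breast cancer progression series, with and without CRISPR targeting of METTL3, the enzyme that writes most of the m6A mark on messenger RNA.

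Aldehyde dehydrogenases oxidize reactive aldehydes to carboxylic acids with NAD or NADP as cofactor. The ALDH1A enzymes make retinoic acid from retinal, a ligand of nuclear receptors that steers epithelial differentiation, while the ALDH3 enzymes act on medium- and long-chain and aromatic aldehydes, many of them products of lipid peroxidation. In the breast, high aldehyde dehydrogenase activity and a CD44-high, CD24-low surface profile are the usual ways to enrich stem-like and tumour-initiating cells, and the CD44-high, CD24-low profile is also common in basal and mesenchymal cells.

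MCF10A is a spontaneously immortalized, non-tumorigenic human breast epithelial line, MCF10AT1 carries in addition a stably introduced mutant HRas, and MCF10CA1h came out of MCF10AT1 after serial growth as xenografts in mice. From each line, cells given a control guide construct (genotype control negative CRISPR) and cells given a guide against the first exon of METTL3 (genotype METTL3 CRISPR knockdown) were sequenced in 3 libraries each, a, b and c, which gave 6 groups. Cas9 and guide were introduced by transient transfection, mCherry-positive cells were sorted, and lines were grown from single cells, so that a group is 1 such line and its 3 libraries do not sample the differences between clones. No source used here says whether the 3 libraries came from separate cultures, and the p-values measure only the spread between libraries.

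The deposited values are normalized counts, and they summed to between 21347352 and 31681834 per library. METTL3 itself (chr14:21498133-21511342, minus strand) was between 459 and 752 normalized counts in the 3 MCF10A control libraries and between 509.8 and 981 in those labelled knockdown, between 805 and 1016 against 752 and 902 in MCF10AT1, and between 1022 and 1280.4 against 745 and 843 in MCF10CA1h. The gene was lower in MCF10CA1h (log2 fold change -0.49, SE 0.12, adjusted p = 0.0234, limma), while the differences of 0.33 (SE 0.30, adjusted p = 0.618) in MCF10A and -0.17 (SE 0.26, adjusted p = 0.707) in MCF10AT1 did not pass. TOX4 overlaps METTL3 on the other strand, with a mean of 1530 normalized counts against 856 for METTL3. The level of a transcript does not show whether the edited exon still codes for protein, so the libraries are called labelled knockdown throughout. By Western blot the paper reports less METTL3 protein in knockdown clones of each line, substantially so in MCF10AT1 and only moderately in MCF10CA1h. By real-time PCR it reports a smaller effect on the METTL3 transcript, with the relative decrease in the knockdown lines kept. It also reports significantly lower m6A in MCF10AT1 and MCF10CA1h, and a decrease that was not significant in MCF10A. The MCF10AT1 libraries labelled knockdown stood apart in their cell type markers: the epithelial cadherin CDH1 had a group mean of 40.9 against 3906 in the controls, the epithelial adhesion protein EPCAM 107 against 3786 and the basal keratin KRT5 3045 against 44293. The intermediate filament VIM was at 65860 against 3922 there, and 19 of 26 tested mammary epithelial markers were lower (median log2 fold change -3.97) while 9 of 16 tested fibroblast and mesenchymal markers were higher (median 5.14), against a median of 0.02 over all genes tested. The summed level of the 21 mesenchymal markers was 128800 to 218800 in these libraries and 5553 to 6458 in their controls, and that of the 26 epithelial markers 198700 to 248700 against 292800 to 512800. The fibroblast collagen COL1A1 was not higher (81.8 against 117), the endothelial markers VWF and CDH5 had group means of 0.823 and 0, and the leukocyte antigen PTPRC was listed at 0 in all 6 libraries, while ACKR1, an endothelial chemokine receptor, was at 1732 against 0 and the mesenchymal collagen COL3A1 at 811 against 0.75. Of the endothelial list 1 of 2 tested genes passed (ACKR1), with a summed level of 1824 to 2790 against 244 to 868, and of the leukocyte list 1 of 4 (SRGN, a proteoglycan core protein, 11.28, SE 0.52, adjusted p = 2.25e-05), with 6928 to 8633 against 893 to 1593. These markers moved together with the changes described next in MCF10AT1, and their part in those changes was not tested. In MCF10A 2 of 25 epithelial markers passed (KRT5 higher and CLDN7 lower) and none of the 12 mesenchymal, 3 endothelial and 4 leukocyte markers tested (9, 3 and 3 with an unadjusted p under 0.05, limma). With the replicate letter as a block these counts in MCF10A were 12 epithelial, 4 mesenchymal, 1 endothelial and 1 leukocyte markers, and 3 leukocyte markers in MCF10AT1. In MCF10CA1h 10 of 22 epithelial markers passed, 9 of them higher, 6 of 17 mesenchymal markers, 5 of them higher, 1 of 3 endothelial markers (PECAM1, lower) and 4 of 6 leukocyte markers, 3 of them higher. Over all genes tested, 2.65% passed in MCF10A, 13% in MCF10AT1 and 12.8% in MCF10CA1h. With the replicate letter as a block, 7.6% passed in MCF10A and 24.5% in MCF10AT1.

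The members lie on 6 chromosomes, by the GENCODE 44 annotation of hg38. ALDH1A1 (ENSG00000165092) is at chr9:72900671-73080442 on the minus strand and ALDH1A3 (ENSG00000184254) at chr15:100877714-100916626 on the plus strand. The ALDH3A genes are neighbours in opposite orientation, ALDH3A2 (ENSG00000072210) at chr17:19648136-19685760 on the plus strand and ALDH3A1 (ENSG00000108602) at chr17:19737984-19748943 on the minus strand, with 52223 bases between them. The ALDH3B genes are likewise on 1 chromosome, ALDH3B2 (ENSG00000132746) at chr11:67662155-67681224 on the minus strand and ALDH3B1 (ENSG00000006534) at chr11:68008578-68029282 on the plus strand, 327353 bases apart. CD44 (ENSG00000026508) is at chr11:35138882-35232402 on the plus strand, CD24 (ENSG00000272398) at chr6:106969831-106975627 on the minus strand and PROM1 (ENSG00000007062) at chr4:15963076-16084378 on the minus strand. The values are sums over the transcripts of a gene, so the standard and variant isoforms of CD44 are not separated. The antisense RNA ALDH1A3-AS1 overlaps ALDH1A3 and had a mean of 125 normalized counts against 3291 over the 18 libraries, and no other overlapping gene of a member exceeded 16.6.

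The 250 bases before the RefSeq start (GRCh38.p14) were at hand for 7 of the 9 members, all but ALDH3A1 and ALDH3B2, and were searched on both strands for 4 motifs: the E2-box CACCTG or CAGGTG, to which the ZEB and SNAI repressors bind, the core of the aryl hydrocarbon receptor element GCGTG or CACGC, the TATA box TATAAA or TTTATA, and the CCAAT box CCAAT or ATTGG. Of 27305 genes, 17.5% held the first, 31.9% the second, 11.1% the third and 33.0% the last in such a window. The windows of the ALDH1A members ALDH1A1 and ALDH1A3, which differ in base composition, and of CD44 and CD24, the pair used for sorting, are shown with matches in capitals.
ALDH1A1 (chr9:72953054-72953303, minus strand): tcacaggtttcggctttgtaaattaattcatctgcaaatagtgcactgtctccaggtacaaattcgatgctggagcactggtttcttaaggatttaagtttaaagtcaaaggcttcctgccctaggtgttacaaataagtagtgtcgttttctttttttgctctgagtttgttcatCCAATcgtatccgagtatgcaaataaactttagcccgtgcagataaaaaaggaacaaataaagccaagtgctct
ALDH1A3 (chr15:100879581-100879830, plus strand): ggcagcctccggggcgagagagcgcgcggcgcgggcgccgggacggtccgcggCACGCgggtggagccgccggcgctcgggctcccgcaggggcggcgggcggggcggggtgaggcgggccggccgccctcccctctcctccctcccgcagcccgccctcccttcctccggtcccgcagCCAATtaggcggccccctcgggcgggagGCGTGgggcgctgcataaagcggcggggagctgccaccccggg
CD44 (chr11:35138921-35139170, plus strand): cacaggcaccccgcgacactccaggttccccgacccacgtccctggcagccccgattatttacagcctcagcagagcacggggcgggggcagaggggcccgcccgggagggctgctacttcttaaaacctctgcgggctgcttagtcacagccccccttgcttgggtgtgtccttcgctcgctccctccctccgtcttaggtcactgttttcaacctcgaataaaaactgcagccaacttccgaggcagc
CD24 (chr6:106975628-106975877, minus strand): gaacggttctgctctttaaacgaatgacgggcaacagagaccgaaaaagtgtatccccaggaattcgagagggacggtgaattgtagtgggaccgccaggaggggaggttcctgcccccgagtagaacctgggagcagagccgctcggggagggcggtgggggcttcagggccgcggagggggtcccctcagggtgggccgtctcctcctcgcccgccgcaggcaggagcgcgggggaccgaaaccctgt
The ALDH1A3 window held 38 CpG sites and 82.4% G and C, more than 98.6% of genes, with 2 receptor cores and 1 CCAAT box, whereas that of ALDH1A1 held 6 CpG sites and 38.4% G and C, with 1 CCAAT box. Over all genes the medians were 11 CpG sites and 58.0%. The windows of CD44 (15 CpG sites, 62.4%) and CD24 (20 CpG sites, 65.6%) held none of the motifs, and an E2-box was found before ALDH3B1 and before PROM1. The windows of ALDH1A1, ALDH1A3, CD44 and PROM1 lie within the span that GENCODE gives for the gene, whose other transcripts start further upstream.

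In MCF10A, ALDH3A1 and ALDH3A2 rose and CD24 fell in the libraries labelled knockdown, 3 of the 9 members tested, against 2.65% of 15416 genes (1.16% higher and 1.49% lower). In MCF10AT1, ALDH3A1 and ALDH3A2 rose while ALDH1A3, ALDH3B2 and CD24 fell, 5 of the 7 members tested, against 13% of 16050 genes (7.07% higher and 5.96% lower). In MCF10CA1h, CD24 rose and ALDH3A1 fell, 2 of the 7 members tested, against 12.8% of 15127 genes (7.91% higher and 4.85% lower). The letters a, b and c were taken to pair libraries in MCF10A and MCF10AT1, which the check given with the methods cannot decide. With the letter as a block, 4 members passed in MCF10A, ALDH1A1 in addition, against 7.6% of genes, and 5 in MCF10AT1, against 24.5%. A gene was tested where its mean was at least 10 over the libraries compared, and it passed with an adjusted p under 0.05 over all genes tested. ALDH1A1 and PROM1 in MCF10AT1, and ALDH3B2 and PROM1 in MCF10CA1h, were under that level. ALDH3B2 in MCF10AT1 met it only through its controls (mean 148 against 0.593), and the 5 members called there include it. The 3 labelled knockdown values did not overlap the 3 control values for 4 of the 9 members in MCF10A (23.9% of genes tested). The same held for 8 of 9 members in MCF10AT1 (32.8%) and for 4 of 9 members of MCF10CA1h (32.7%). The members counted include those under the filter and the genes tested do not.

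**Figure D1:**
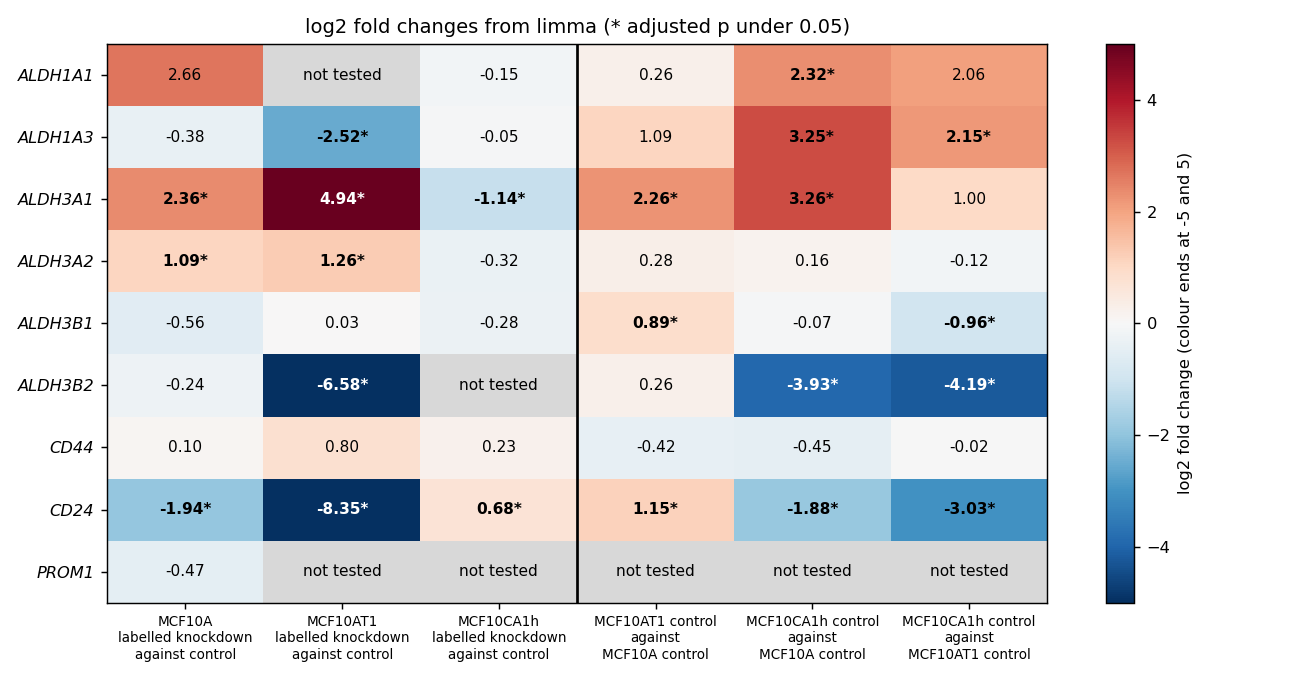
log2 fold changes (number and colour) of the 9 genes (rows) in the 3 comparisons of libraries labelled knockdown against controls and the 3 comparisons between control groups (columns), from limma with 3 libraries per group. Stars mark an adjusted p under 0.05 and grey cells were under the filter. CD24 was called in all 6 comparisons and CD44 in none.

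ALDH1A3, the retinal dehydrogenase that carries much of the aldehyde dehydrogenase activity of breast cancer cells, fell in MCF10AT1 to 16.1% of its control mean. The 3 MCF10AT1 controls had 1607, 1160.5 and 3129 normalized counts and the libraries labelled knockdown 268, 303 and 376. The groups did not overlap, and the log2 fold change was -2.52 (SE 0.39, adjusted p = 0.00422). In MCF10A the controls had 969, 1150.2 and 540.1 normalized counts and the libraries labelled knockdown 493, 1060.6 and 523, overlapping groups with a difference of -0.38 (SE 0.37, adjusted p = 0.644). MCF10CA1h held the gene at the highest level of the 3 lines, with 6573, 9731 and 8065 in controls and 7933, 6938 and 8420.3 in the libraries labelled knockdown. That difference was -0.05 (SE 0.14, adjusted p = 0.843).

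ALDH1A1, the family member most often used as a stem cell marker, was at low levels everywhere, at most 80.6 normalized counts in any library. In MCF10A the controls had 31.9, 6.56 and 2.80 and the libraries labelled knockdown 80.6, 40.6 and 69.5, groups that did not overlap. The log2 fold change of 2.66 (SE 0.75) missed the threshold with an adjusted p of 0.11. Control a was the high one of its group. Without it the difference was 3.53 with an adjusted p of 0.0102, and the adjusted p of the 2.66 was 0.0331 with the replicate letter as a block and 0.0405 in the fit of the 18 libraries together. In MCF10AT1 the controls had 29.0, 5.28 and 7.69 and the libraries labelled knockdown 0, 0 and 1.22, under the filter, and without a filter the difference was -3.18 (SE 0.88, adjusted p = 0.06). The MCF10CA1h values were 51.3, 49.6 and 43.5 in controls against 44.5, 38.0 and 47.6, with a difference of -0.15 (SE 0.26, adjusted p = 0.748).

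ALDH3A1, an enzyme best known for clearing aldehydes in cornea and stomach and a classical target of the aryl hydrocarbon receptor, gave the largest rise of the 9 genes in MCF10AT1. Its normalized counts there were 452, 252 and 346 in the controls and 16910.2, 11849.8 and 5682 in the libraries labelled knockdown. The mean was 32.8 times that of the controls, and the log2 fold change was 4.94 (SE 0.43, adjusted p = 0.000251). In MCF10A it went from 145, 68.1 and 34.8 to 386, 311 and 403, again without overlap, a log2 fold change of 2.36 (SE 0.46, adjusted p = 0.0406). This call in MCF10A was lost when control b (2.34, adjusted p = 0.13), control c (1.86, 0.0524) or any library labelled knockdown (2.29 to 2.47, adjusted p up to 0.157) was left out, and without the intensity trend in the fit (0.0861). In MCF10CA1h the direction was the opposite: the controls had 567, 669 and 833 normalized counts and the libraries labelled knockdown 296, 285 and 348. The gene fell to 44.9% of its control mean, with a log2 fold change of -1.14 (SE 0.16, adjusted p = 0.00179), which did not pass in a fit of the 18 libraries together (adjusted p = 0.288).

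ALDH3A2, the fatty aldehyde dehydrogenase of the endoplasmic reticulum, differed in the same direction as its chromosomal neighbour in each line. In MCF10A the controls had 3324, 3991 and 2175 normalized counts and the libraries labelled knockdown 6255, 6028 and 7421, a mean 2.08 times as high. The log2 fold change of 1.09 (SE 0.23) passed narrowly with an adjusted p of 0.0494, and was lost without control b (1.28, 0.0648), without control c (0.84, 0.0785) or without any library labelled knockdown (1.00 to 1.15, adjusted p 0.114 to 0.174), as well as with a pseudocount of 0.5 (0.0508), a minimum mean of 50 (0.052) or no intensity trend (0.115). In MCF10AT1 the values went from 3618, 3243 and 4385 to 8016, 7972 and 11019, a mean 2.40 times as high. That log2 fold change was 1.26 (SE 0.27, adjusted p = 0.0177), with an adjusted p of 0.0927 without control a, 0.0771 without labelled knockdown b, 0.0557 without labelled knockdown c and 0.0646 with equal library sums. In MCF10CA1h the groups did not overlap, at 3275, 3500.4 and 3523 against 3046, 2733 and 2513. The difference of -0.32 (SE 0.10) missed the threshold with an adjusted p of 0.0626, and passed without labelled knockdown a (-0.39, 0.0391) and with equal library sums (-0.37, 0.0301).

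The ALDH3B genes, whose products act on lipid aldehydes at membranes and lipid droplets, differed in MCF10AT1, where ALDH3B2 fell and ALDH3B1 did not pass. They are close paralogs, and Kallisto divides reads that fit both by probability, so their values are estimates. ALDH3B2 had 201, 67.4 and 177 normalized counts in the MCF10AT1 controls and 0, 1.78 and 0 in the libraries labelled knockdown. Its fitted log2 fold change there was -6.58 (SE 0.74, adjusted p = 0.00083), a size that depends on the pseudocount because 2 of the values are listed at 0. ALDH3B1 in the same libraries had 1213, 1178 and 1057 against 1218, 1077 and 1222, a difference of 0.03 (SE 0.24, adjusted p = 0.956). In MCF10A neither passed: ALDH3B2 went from 326, 75.0 and 56.0 to 123, 94.8 and 71.4 (-0.24, SE 0.61, adjusted p = 0.882) and ALDH3B1 from 949, 614 and 405 to 350, 462 and 456 (-0.56, SE 0.30, adjusted p = 0.381). Control a was the highest of its group for both. In MCF10CA1h, ALDH3B2 was near its detection limit, at 1.64, 15.2 and 8.47 in controls and 1.83, 2.09 and 5.29 in the libraries labelled knockdown, and ALDH3B1 had 589, 508 and 681 against 464, 423 and 583 (-0.28, SE 0.16, adjusted p = 0.292).

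**Figure D2:**
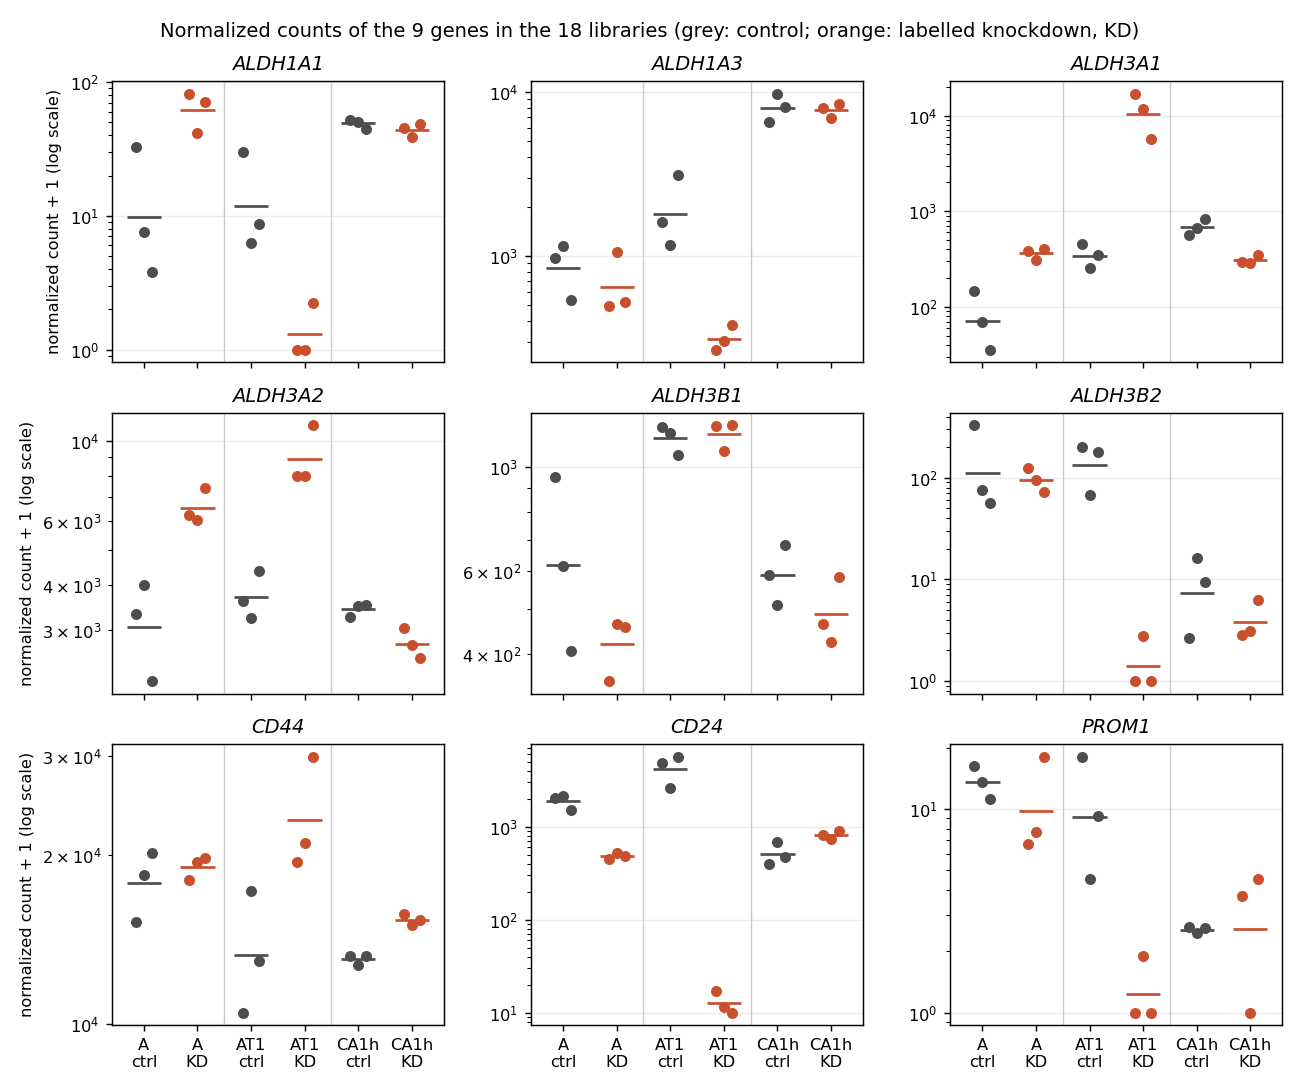
Normalized counts plus 1 (log scale, each panel with its own range) of the 9 genes in the 18 libraries, 3 per group, with grey points for controls and orange points for libraries labelled knockdown (KD). Lines are the means on the log scale. ALDH3A1 reached 5682 to 16910.2 and CD24 only 9.05 to 16.3 in the MCF10AT1 libraries labelled knockdown.

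To compare genes, values were divided by the length of the main annotated transcript, which assumes that this transcript is the one expressed. On that basis the make-up of the aldehyde dehydrogenase family differed between groups. Over 19 family genes, the mean normalized counts per kilobase summed to 3938 in MCF10A controls, 5568 in MCF10AT1 controls and 7746 in MCF10CA1h controls, and to 5160, 13560 and 6417 in the libraries labelled knockdown. ALDH3A2 was the most abundant family transcript in MCF10A controls (21.7% of the sum) and in MCF10AT1 controls (18.2%), and ALDH1A3 in MCF10CA1h controls (30.2%). ALDH3A1 made up 1.28% of the sum in MCF10A controls, 3.83% in MCF10AT1 controls and 51.6% in the MCF10AT1 libraries labelled knockdown, where it ranked first and ALDH3A2 second with 17.9%. In MCF10A the libraries labelled knockdown had 34.4% ALDH3A2 and 4.34% ALDH3A1, and in MCF10CA1h ALDH1A3 remained first with 34.9%. ALDH1A1 was at most 0.588% of the sum in any group. The 6 members together held 37% of the sum in MCF10A controls and 73.3% in the MCF10AT1 libraries labelled knockdown.

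**Figure D3:**
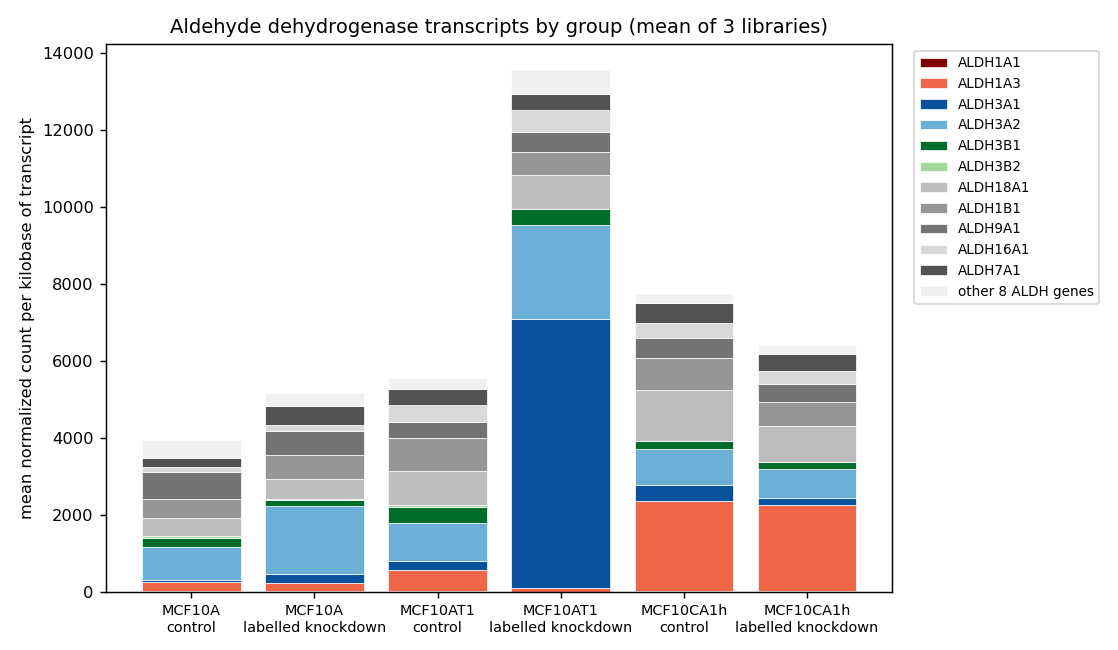
Mean normalized counts per kilobase of transcript for 19 aldehyde dehydrogenase genes, stacked by group (means of 3 libraries, no error bars, since the spread of the members is given by library). The 6 members are coloured and the other genes grey. The MCF10AT1 libraries labelled knockdown reached 13560, of which ALDH3A1 was 51.6%.

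Of the 13 other aldehyde dehydrogenase genes, none of 13 tested passed in MCF10A (4 had an unadjusted p under 0.05, limma), where 2.65% of all genes did, 1 of 11 passed in MCF10AT1 (13% of all genes) and 3 of 11 in MCF10CA1h (12.8%). With the replicate block 2 passed in MCF10A and 3 in MCF10AT1, against 7.6% and 24.5% of all genes. Their median log2 fold changes were 0.26, 0.03 and -0.18, against -0.00, 0.02 and -0.02 over all genes tested. The gene that rose in MCF10AT1 was ALDH1L1, a folate enzyme (4.99, SE 0.33, adjusted p = 7.19e-05). Those that fell in MCF10CA1h were its mitochondrial counterpart ALDH1L2 (-2.50, SE 0.41, adjusted p = 0.00365), the proline synthesis enzyme ALDH18A1 (-0.48, SE 0.10, adjusted p = 0.0115) and the mitochondrial ALDH1B1 (-0.43, SE 0.09, adjusted p = 0.0131).

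Around the ALDH1A enzymes stand the genes that carry, make, bind and break down retinoids. Beside the counts given next, 2.65% of all genes passed in MCF10A, 13% in MCF10AT1 and 12.8% in MCF10CA1h. With the replicate block the share in MCF10A was 7.6%. In MCF10AT1, 12 of 17 tested genes of this list passed, 8 higher and 4 lower (median log2 fold change 0.90). The largest were TGM2, a transglutaminase induced by retinoic acid (6.64, SE 0.26, adjusted p = 1.87e-05), STRA6, the retinol uptake receptor (5.64, SE 0.29, adjusted p = 2.68e-05), and, with equal changes, RBP4, the retinol carrier (5.44, SE 0.78, adjusted p = 0.00271), and the phospholipase PLAAT4 (5.44, SE 0.63, adjusted p = 0.000948). RBP4 met the filter only through the libraries labelled knockdown (mean 123 against 2.15 in controls). The count includes it, and the size of its change depends on the pseudocount. In MCF10A, 1 of 14 passed (median -0.22, 2 with the replicate block), the retinal reductase DHRS3 (-2.26, SE 0.23, adjusted p = 0.00803). In MCF10CA1h, 4 of 17 passed, 2 in each direction (median -0.00), among them RARRES1, a retinoic acid responsive gene (-2.30, SE 0.27, adjusted p = 0.000647), TGM2 (2.04, SE 0.19, adjusted p = 0.000159) and PLAAT4 again (1.10, SE 0.29, adjusted p = 0.0334). Of 7 tested genes of the aryl hydrocarbon receptor pathway, which holds known regulators and companions of ALDH3A1, 2 passed in MCF10A, both higher (median 0.92, 4 with the replicate block): the glucuronosyltransferase UGT1A6 (2.30, SE 0.35, adjusted p = 0.0172) and CYP1B1, a receptor target (1.54, SE 0.26, adjusted p = 0.0248). In MCF10AT1 again 2 of 7 passed (median 0.11), in opposite directions, UGT1A6 (-4.81, SE 0.83, adjusted p = 0.00676) and the quinone reductase NQO1 (3.12, SE 0.32, adjusted p = 0.000524). None of 7 passed in MCF10CA1h (median 0.07, 1 with an unadjusted p under 0.05, limma). UGT1A6 shares its last exons with the other UGT1A genes, so its value is uncertain.

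CD24, a small glycosylated surface protein of luminal and differentiated epithelial cells, fell in MCF10AT1 and MCF10A and rose in MCF10CA1h. In the MCF10AT1 controls it had 4805, 2628 and 5603 normalized counts and in the libraries labelled knockdown 16.3, 10.7 and 9.05. Its mean was 0.276% of that of the controls, with a log2 fold change of -8.35 (SE 0.41, adjusted p = 2.51e-05). In bulk RNA, fewer cells with the transcript and less transcript per cell cannot be told apart. In MCF10A it went from 2052, 2112 and 1494 to 449, 523 and 486, 25.8% of the control mean (-1.94, SE 0.18, adjusted p = 0.00523). In MCF10CA1h it rose from 397, 682 and 476 to 804, 735 and 897, 1.57 times the control mean. That log2 fold change of 0.68 (SE 0.19, adjusted p = 0.0385) was lost without control a (0.51, 0.136), without control c (0.64, 0.105), without any library labelled knockdown (0.60 to 0.75, adjusted p 0.0717 to 0.118), with equal library sums (0.0725), without the trend (0.119) and in the fit of the 18 libraries together (0.38).

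CD44, the hyaluronan receptor, was abundant in every library, between 10474 and 29911 normalized counts, and no comparison called it. In MCF10AT1 the controls had 10474, 17238 and 12944 and the libraries labelled knockdown 19468, 21034 and 29911. These groups did not overlap, and the mean was 1.73 times as high, but the log2 fold change of 0.80 (SE 0.32) had an adjusted p of 0.144. It passed in the fit of the 18 libraries together (adjusted p = 0.00426). In MCF10CA1h the values were 13238, 12726 and 13191 against 15724, 14988 and 15293, a difference of 0.23 (SE 0.08, adjusted p = 0.0817) between groups that did not overlap. In MCF10A they were 15196, 18424 and 20162 against 18038, 19398 and 19719.96, overlapping groups (0.10, SE 0.16, adjusted p = 0.805).

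PROM1, which encodes the stem cell antigen CD133, was at the lower end of what the libraries measure. It had 15.2, 12.6 and 10.1 normalized counts in MCF10A controls and 5.74, 6.68 and 17.0 in the libraries labelled knockdown (-0.47, SE 0.53, adjusted p = 0.697). The MCF10AT1 controls had 17.0, 3.54 and 8.24 against 0, 0.89 and 0, and without a filter the difference of -2.88 (SE 0.81) had an adjusted p of 0.0642. All 6 MCF10CA1h libraries were at or under 3.51, where no difference was detectable.

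The CD44 to CD24 ratio within a library, is given on the log2 scale with 1 added to each value. The scaling of a library enters it only through the added 1, most where CD24 is low. It was 2.89, 3.12 and 3.75 in MCF10A controls and 5.33, 5.21 and 5.34 in the libraries labelled knockdown, a difference of 2.04 (SE 0.26). In MCF10AT1 it was 1.12, 2.71 and 1.21 in controls and 10.14, 10.82 and 11.54 in the libraries labelled knockdown, a difference of 9.15 (SE 0.66). Both pairs of groups were fully separated. In MCF10CA1h it was 5.05, 4.22 and 4.79 in controls and 4.29, 4.35 and 4.09 in the libraries labelled knockdown, overlapping groups with a difference of -0.45 (SE 0.26). The two-sided exact permutation p was 0.1 in MCF10A and in MCF10AT1, the smallest that 3 against 3 libraries allow, and 0.3 in MCF10CA1h. Adjusted over the 6 comparisons of this ratio, these were 0.12, 0.12 and 0.3. Among controls the mean ratio was lowest in MCF10AT1 (1.68, SD 0.89, n = 3), intermediate in MCF10A (3.26, SD 0.45, n = 3) and highest in MCF10CA1h (4.69, SD 0.43, n = 3). Each pair of control groups was separated, and each had an exact permutation p of 0.1, or 0.12 adjusted. The ratio sets the counts of different transcripts against each other without dividing by length, so its differences between libraries can be read and its level cannot.

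**Figure D4:**
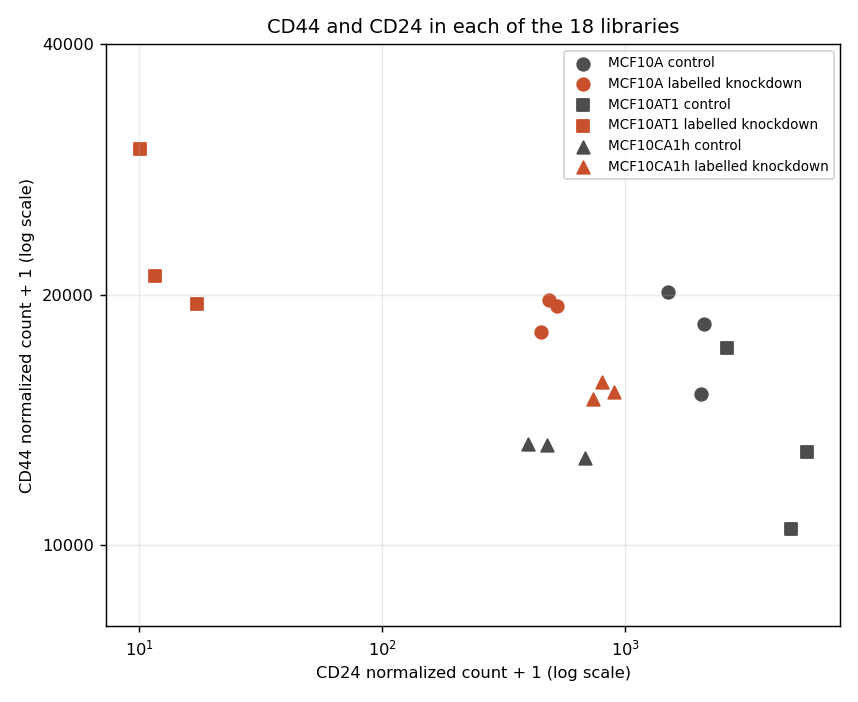
CD44 against CD24 in each of the 18 libraries (normalized count plus 1, both axes on a log scale), with 1 symbol per line, grey for controls and orange for libraries labelled knockdown. The libraries spread along the CD24 axis, from 9.05 to 5603 normalized counts, while CD44 stays between 10474 and 29911.

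Of genes that make, bind or process hyaluronan and CD44, none of 17 tested passed in MCF10A, where 2.65% of all genes did. Of these 17, 5 had an unadjusted p under 0.05 (limma), and 1 was called with the replicate block (7.6% of all genes). In MCF10AT1 4 of 16 passed, 1 higher and 3 lower (median -0.76), against 13% of all genes. In MCF10CA1h 2 of 18 passed, both higher (median 0.07), against 12.8% of all genes. In MCF10AT1 the splicing factors that keep CD44 in its epithelial variant form fell, ESRP1 by a log2 fold change of -8.89 (SE 1.03, adjusted p = 0.000966) and ESRP2 by -1.58 (SE 0.26, adjusted p = 0.00591). The CD44 ligand osteopontin, SPP1, rose (8.23, SE 0.66, adjusted p = 0.000174). The mean of SPP1 was 441 against 0.393 in controls, and that of ESRP1 9.46 against 2302. Both genes met the filter through a single group and are in the count, and the sizes of their changes depend on the pseudocount. The membrane protease MMP14, which cleaves CD44, fell (-1.02, SE 0.27, adjusted p = 0.0446). In MCF10CA1h SPP1 rose as well (2.69, SE 0.45, adjusted p = 0.00402) and MMP14 rose (0.41, SE 0.10, adjusted p = 0.0204). The differences between the lines were not tested for these genes.

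Other stem and progenitor markers went in both directions in each line. Among all genes tested, MCF10A had 2.65% called (7.6% with the replicate block) and MCF10AT1 had 13% (24.5% with the block). For MCF10CA1h this share was 12.8%. In MCF10A 3 of 21 passed (median -0.04, 9 with the replicate block): the nerve growth factor receptor NGFR (4.14, SE 0.69, adjusted p = 0.0244), the ectonucleotidase NT5E (-1.78, SE 0.36, adjusted p = 0.0452) and the R-spondin receptor LGR4 (1.31, SE 0.24, adjusted p = 0.0347). In MCF10AT1 9 of 21 passed, 3 higher and 6 lower (median -1.20, 15 with the replicate block), led by THY1, which is also in the mesenchymal list (9.61, SE 0.47, adjusted p = 2.51e-05), the integrin ITGB3 (7.38, SE 0.88, adjusted p = 0.00113) and PROM2, the paralog of PROM1 (-6.56, SE 0.37, adjusted p = 3.83e-05). THY1 (mean 2040 against 1.53 in controls) and ITGB3 (339 against 0.867) met the filter only through the libraries labelled knockdown. The count includes them, and the sizes of their changes depend on the pseudocount. In MCF10CA1h 6 of 20 passed, 4 higher and 2 lower (median 0.15), among them NGFR (-2.96, SE 0.37, adjusted p = 0.000892), NT5E (1.15, SE 0.16, adjusted p = 0.00137) and MUC1 (0.76, SE 0.20, adjusted p = 0.0343). NGFR and NT5E thus moved in opposite directions in MCF10A and MCF10CA1h, differences that were not tested for these genes.

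The 9 control libraries were fitted together, and each line enters 2 of the 3 contrasts. Of the 8 members tested, ALDH3A2 and CD44 passed in none of these contrasts. Against MCF10A controls, MCF10AT1 controls were higher in 3 of 8 tested members and lower in none, where 28.1% of 15652 genes passed (13.3% higher and 14.7% lower). These were ALDH3A1 (log2 fold change 2.26, adjusted p = 0.00935), CD24 (1.15, 0.0271) and ALDH3B1 (0.89, 0.0468). Against MCF10A controls, MCF10CA1h controls differed in 5 of 8, where 37.8% passed (19% higher and 18.8% lower). ALDH3A1 (3.26, adjusted p = 0.000978), ALDH1A3 (3.25, 0.000437) and ALDH1A1 (2.32, 0.0493) were higher and ALDH3B2 (-3.93, 0.00576) and CD24 (-1.88, 0.00209) lower. Against MCF10AT1 controls, MCF10CA1h controls differed in 4 of 8, where 21.8% passed (11% higher and 10.8% lower). ALDH1A3 was higher (2.15, adjusted p = 0.00486) and ALDH3B2 (-4.19, 0.00723), CD24 (-3.03, 0.000356) and ALDH3B1 (-0.96, 0.042) were lower. CD44 differed by -0.42 (adjusted p = 0.147), -0.45 (0.12) and -0.02 (0.946) in the same order. PROM1 was under the filter in all 3. Without a filter its differences were -0.57 (adjusted p = 0.622), -2.40 (0.0263) and -1.83 (0.113) in that order, with 10.1 to 15.2 normalized counts in MCF10A controls and 1.45 to 1.63 in those of MCF10CA1h. The mean of ALDH1A3 was 886 in MCF10A controls, 1965 in those of MCF10AT1 and 8123 in those of MCF10CA1h. No pair of these groups overlapped, but the difference between the first pair had an adjusted p of 0.0598 (log2 fold change 1.09, SE 0.39).

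Some of these calls between controls depended on single libraries. The call of ALDH1A1 between MCF10CA1h and MCF10A was lost without MCF10A control b (2.13, 0.136) or c (1.64, 0.169) or any MCF10CA1h control (2.27 to 2.39, adjusted p 0.108 to 0.123), and its adjusted p lay between 0.0522 and 0.0778 with no filter, no trend, equal sums or a pseudocount of 0.5. The remaining calls that depended on 1 library concern smaller differences. CD24 between MCF10AT1 and MCF10A was lost without MCF10A control b (1.24, 0.0668) or c (0.99, 0.105), without MCF10AT1 control a (1.04, 0.0914) and with equal sums (1.01, 0.093). ALDH3B1 between MCF10AT1 and MCF10A was lost without MCF10A control b (0.89, 0.126) or c (0.59, 0.152) and without MCF10AT1 control a (0.85, 0.123) or b (0.87, 0.0904). With no filter, no trend or equal sums its adjusted p was 0.0731, 0.0654 and 0.104. Between MCF10CA1h and MCF10AT1, ALDH3B1 was lost without MCF10AT1 control a (-0.92, 0.118) or b (-0.94, 0.0651) or any MCF10CA1h control (-1.07 to -0.86, adjusted p 0.0805 to 0.149). With no filter, no trend or equal sums this adjusted p was 0.0629, 0.0603 and 0.0896. Other values missed the threshold and passed without MCF10AT1 control b, those of ALDH1A3 (1.41, 0.0327) and CD44 (-0.61, 0.043) between MCF10AT1 and MCF10A. In the fit of the 18 libraries together, ALDH1A3 between MCF10AT1 and MCF10A (1.09, 0.0251) and ALDH1A1 between MCF10CA1h and MCF10AT1 (2.06, 0.0345) passed.

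Whether the knockdown effect differed between lines was tested as an interaction in the 18 libraries together, where the effect of a line enters 2 of the 3 contrasts. ALDH1A1 in MCF10AT1 and ALDH3B2 in MCF10CA1h were under the filter in those lines alone and were tested here only through groups where they are higher, so their differences are described and support nothing further. ALDH3B2 in MCF10AT1 was likewise tested through its controls. The counts of members below, and the shares of all genes beside them, include such genes. Between MCF10AT1 and MCF10A, 5 of 8 tested members differed, against 21.6% of 15897 genes. The effect was lower in MCF10AT1 for CD24 (-6.41, SE 0.40, adjusted p = 9.48e-09), ALDH3B2 (-6.34, SE 1.04, adjusted p = 0.000327), ALDH1A1 (-5.84, SE 0.98, adjusted p = 0.000372, -6.71 to -3.76 over the alternatives) and ALDH1A3 (-2.14, SE 0.50, adjusted p = 0.00555), and higher for ALDH3A1 (2.58, SE 0.60, adjusted p = 0.00521). For ALDH3A2, which rose in both lines, the difference was 0.17 with an adjusted p of 0.731. Between MCF10CA1h and MCF10A, 3 of 8 differed, against 5.34%: ALDH3A1 (-3.50, SE 0.60, adjusted p = 0.00246), ALDH3A2 (-1.41, SE 0.29, adjusted p = 0.00833) and CD24 (2.62, SE 0.40, adjusted p = 0.00094). ALDH1A1 (-2.81, adjusted p = 0.117) passed without MCF10A control a (-3.68, 0.0145) and without the MCF10AT1 libraries (-2.81, 0.0449). Between MCF10CA1h and MCF10AT1, 6 of 8 differed, against 18.2%. The effect was higher in MCF10CA1h for CD24 (9.03, SE 0.40, adjusted p = 3.15e-10), ALDH3B2 (5.63, SE 1.04, adjusted p = 0.00108, 4.04 to 6.31 over the alternatives), ALDH1A1 (3.02, SE 0.98, adjusted p = 0.0407) and ALDH1A3 (2.47, SE 0.50, adjusted p = 0.00235), and lower for ALDH3A1 (-6.08, SE 0.60, adjusted p = 1.92e-06) and ALDH3A2 (-1.57, SE 0.29, adjusted p = 0.00101). The ALDH1A1 call was lost without MCF10AT1 control a (2.35, 0.107), without MCF10AT1 labelled knockdown a (2.83, 0.0788) or b (2.83, 0.0881) and without any MCF10CA1h library (2.95 to 3.11, adjusted p 0.0648 to 0.0839), and with equal sums (2.95, 0.0515), no filter (0.0763) or a pseudocount of 5 (1.47, 0.171). For CD44 the differences were 0.70 (adjusted p = 0.0773), 0.14 (0.877) and -0.56 (0.172). The first passed without MCF10AT1 control b (0.89, 0.0122) or labelled knockdown a (0.82, 0.0462), and the last without MCF10AT1 control b (-0.75, 0.0335). With the letter within each line as a block, the first also passed (0.70, SE 0.24, adjusted p = 0.045).

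The genes whose log2 levels over the 18 libraries were most like those of a member were sought among 12459 or 12460 genes with a mean of at least 50, as a description without a test, since libraries of a group share their line. CD24 was most like FUT3, a fucosyltransferase (Pearson's r = 0.974), and MYO5B, a myosin of epithelial vesicle transport (0.973), followed by a gene without a symbol, ENSG00000275234 (0.960), and ALDH3A1 most like PDK2 (0.974), LRP5 (0.964) and ST3GAL5 (0.963). ALDH3B2 was nearest to IGSF9 (0.954), DTX3 (0.947) and LMX1B (0.944), and ALDH1A1 to the collagen receptor DDR1 (0.947), the Wnt antagonist SFRP1 (0.930) and PRSS12 (0.914). For ALDH1A3 these were MCM8 (0.938), ZFP64 (0.937) and the Wnt inhibitor DKK1 (0.937). ALDH3A2 had TRIB2 (0.949) ahead of SIAE (0.874) and ICOSLG (0.864), and ALDH3B1 had the kinase MAPK3 (0.921), MINDY4 (0.920) and LOXL1 (0.906). CD44 had the lowest likeness of the 8, with TSPAN5 (0.875), SLC20A1 (0.864) and the integrin ITGB4 (0.849). PROM1 was not included because its mean over the 18 libraries was under 10 normalized counts.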

How the data were processed

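RNA of 3 control and 3 labelled knockdown libraries was sequenced in each of 3 lines. The authors mapped reads to hg38 transcripts with Kallisto 0.46.1 and normalized gene counts with DESeq2 1.26.0 in R 4.1.1. The deposited signal is a normalized count with 2 decimals, not a count of reads: only 26.3% to 48.5% of the low values of a library lay within 0.03 of a whole multiple of its most frequent low value, so no count test was run, and the depth per gene is unknown. The protocol names ribosomal RNA depletion while the labels name polyA RNA, and the annotation release is not given in the sources used here. Rows without values (24646) were left out. Where several genes shared a symbol, the highest was used (294 others).

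Here log2 of the value plus 1 was tested in R 4.3.3 with limma 3.58.1 (trend), keeping genes that averaged 10 or more in the libraries fitted, with two-sided p-values adjusted by Benjamini-Hochberg over all genes tested and a threshold of 0.05. Each line was fitted alone, the 9 controls together, and interactions in all 18 libraries. All single-gene p-values are limma's. The CD44 to CD24 ratio was compared by exact permutation tests. Scripts were tested on simulated data. Python 3.11.15 (SciPy 1.17.1, pandas 2.3.3, NumPy 2.4.6) gave the other values.

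The members, the lists and the tests were chosen with earlier results of these data known. Named are all members, METTL3, up to 3 called genes of a list and line with the largest change, the 3 genes most like each member, and defining cell type markers. Alternatives were other pseudocounts, filters and scalings, no trend, a joint fit, a stricter threshold, each library left out, and the replicate letter as a block. Deviations from group means over 15897 genes were correlated between control and labelled knockdown libraries of the same letter. The correlations were 0.116 to 0.221 in MCF10A, 0.110 to 0.477 in MCF10AT1 and -0.011 to 0.046 in MCF10CA1h. On this the letters were taken to pair libraries in the first 2 lines only. Between controls of different lines the same-letter correlations ran from -0.268 to 0.284. Libraries of different letters were not compared, so the check cannot decide whether the letters pair libraries.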

Additional observations from a re-analysis of the deposited data

Results flagged for a closer look

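The knockdown effect, as log2 labelled knockdown over control, differed between lines by the interaction test of limma for the following members. Between MCF10AT1 and MCF10A, the effect on ALDH1A1 differed by -5.84 (adjusted p = 0.000372), on ALDH1A3 by -2.14 (0.00555), on ALDH3A1 by 2.58 (0.00521), on ALDH3B2 by -6.34 (0.000327) and on CD24 by -6.41 (9.48e-09). Between MCF10CA1h and MCF10A, it differed for ALDH3A1 by -3.50 (0.00246), for ALDH3A2 by -1.41 (0.00833) and for CD24 by 2.62 (0.00094). Between MCF10CA1h and MCF10AT1, it differed for ALDH1A1 by 3.02 (0.0407), ALDH1A3 by 2.47 (0.00235), ALDH3A1 by -6.08 (1.92e-06), ALDH3A2 by -1.57 (0.00101), ALDH3B2 by 5.63 (0.00108) and CD24 by 9.03 (3.15e-10). The 3 contrasts share libraries, and each group is 1 clonally selected line, so a difference between lines and a difference between the clones sequenced cannot be told apart. ALDH1A1 in MCF10AT1 and ALDH3B2 in MCF10CA1h were under the filter in those lines alone and were tested only through groups where they are higher. ALDH3B2 in MCF10AT1 was likewise tested through its controls, and the size of its change there depends on the pseudocount. Over the alternatives the 2 ALDH1A1 values ranged from -6.71 to -3.76 and from 1.47 to 3.74, and the ALDH3B2 value between MCF10CA1h and MCF10AT1 from 4.04 to 6.31. The ALDH3B2 value between MCF10AT1 and MCF10A ranged from -7.11 to -4.41.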

How the results depend on the processing

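Of 36 calls of members, 26 held under every alternative run. The number of members called was 1 in MCF10A and 1 in MCF10CA1h without the trend, 1 in each of MCF10A, MCF10CA1h and MCF10AT1 against MCF10A controls with an adjusted p under 0.01, 1 in the last also with equal sums and with the replicate block, and 0 in MCF10CA1h in the joint fit. Leaving out 1 library gave 1 to 4 in MCF10A, 1 to 2 in MCF10CA1h and 1 to 4 in MCF10AT1 against MCF10A controls. The block raised the genes called from 409 to 1172 in MCF10A and from 2091 to 3939 in MCF10AT1 (1929 to 1876 in MCF10CA1h). Between control groups, where letters were not taken to pair libraries, the block gave adjusted p of 0.0508 for CD24 and 0.0598 for ALDH3B1 (MCF10AT1 against MCF10A). For ALDH3B1 between MCF10CA1h and MCF10AT1 controls it gave 0.0576. For the interactions the block was the letter within each line, and CD44 passed there with 0.045 (MCF10AT1 against MCF10A effects). The block changed no other member's call but that of ALDH1A1 in MCF10A (0.0331). Uncalled values turned direction for CD44 between MCF10CA1h and MCF10AT1 controls (0.02 with median-of-ratios factors, 0.09 with equal sums) and, with equal sums, for ALDH3B1 in MCF10AT1 (-0.13), ALDH3A2 between MCF10AT1 and MCF10A effects (-0.09) and CD44 between MCF10CA1h and MCF10A effects (-0.01). With 1 library left out, uncalled values that turned ranged from -0.73 to 0.53 for ALDH3B2 and -0.02 to 0.19 for CD44 in MCF10A, -0.03 to 0.09 for ALDH3B1 in MCF10AT1 and -0.20 to 0.09 for ALDH1A3 in MCF10CA1h. Between MCF10AT1 and MCF10A controls they ranged from -0.42 to 1.14 for ALDH1A1 and -0.23 to 1.03 for ALDH3B2, between MCF10CA1h and MCF10A controls from -0.09 to 0.35 for ALDH3A2 and -0.38 to 0.24 for ALDH3B1, and between MCF10CA1h and MCF10AT1 controls from -0.22 to 0.00 for ALDH3A2 and -0.19 to 0.16 for CD44. Between effects, ALDH3A2 (MCF10AT1 against MCF10A) ranged from -0.02 to 0.41 and ALDH3B1 (MCF10CA1h against MCF10A) from -0.03 to 0.59. With equal sums the median of all genes was -0.15 in MCF10AT1, against 0.02 in the main fit. It was -0.15 against -0.01 between MCF10AT1 and MCF10A controls, and 0.16 against 0.05 between MCF10CA1h and MCF10AT1 controls. Between effects it was -0.26 against -0.00 (MCF10AT1 and MCF10A), -0.17 against -0.03 (MCF10CA1h and MCF10A) and 0.10 against -0.01 (MCF10CA1h and MCF10AT1). The share of higher calls moved from 62.0% to 50.2% in MCF10CA1h and from 51.6% to 39.6% between MCF10AT1 and MCF10A effects. The cause of these changes was not tested. Of 243 counts of list genes under the alternatives, 51 moved by more than 1.5 times, among them the MCF10A counts with the block given with the results. Values under about 10 normalized counts limit ALDH1A1, ALDH3B2 and PROM1.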
